A study of Homo sapiens with 6 samples.

Results

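The ubiquitin-conjugating enzyme (E2) genes were taken as the protein-coding genes of the RefSeq GRCh38 table whose symbol starts with UBE2, which gave 36 of 19974 protein-coding genes. The 35 of them described here are the base of every count. Chromatin at these genes was read from ATAC-seq, in which a transposase cuts open DNA and stretches with many cuts are called as peaks. All 6 libraries came from Huh7, a hepatocellular carcinoma line, in which ARID1A, a subunit of the BAF chromatin remodeller, had been knocked out. Flag-tagged ARID1A was then put back by stable lentiviral expression, as the wild-type protein in 2 libraries (WT) and as the V2084D mutant in 4. In 2 of those 4 the ubiquitin ligase STUB1 was also knocked down (V2084D shSTUB1), and the other 2 were left without that knockdown (V2084D). The labels name neither a control hairpin nor the promoter of the lentivirus, and they do not say whether the knockout was 1 clone or whether replicates were separate cultures. Peaks do not measure RNA or protein, so the knockout, the transgenes and the knockdown could not be checked here.

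Ubiquitin is attached to proteins in a relay. An activating enzyme (E1) charges ubiquitin, passes it to an E2, and the E2 works with a ligase (E3) that picks the substrate. The E2 often sets which kind of ubiquitin chain is built, and some E2s carry NEDD8 or ISG15 in place of ubiquitin. STUB1, also called CHIP, is an E3 that binds HSP70 and HSP90 and ubiquitinates their client proteins. It works with UBE2D1, UBE2D2 and UBE2D3, which take many E3s as partners, and with UBE2N, which builds Lys63-linked chains as a dimer with UBE2V1.

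A gene counted as having a gene-end peak in a library when any base of a peak lay within 1000 bp of its start or end. The fold of a peak is the authors' enrichment over local background at the summit, and its rank is given as a percentile, the share of summits in the same library's list whose deposited −log10 q is the same or lower. Folds and percentiles place a peak within its own list. The lists differ in length, so values given side by side for several libraries show no change between them. The lists held 7401 to 30768 summits, and the median summit rested on 8 to 12 reads. Depth was estimated from the lowest local background recovered among the summits of a list, not from read totals. Relative to the shallowest library by this estimate, WT replicate 2, it ran up to 1.70 in V2084D replicate 2. A missing peak therefore says that none was called at that depth. In such bulk libraries, opening in fewer cells and less opening per cell cannot be told apart. Of 9 liver genes checked as markers of the labelled cell type, 7 had no gene-end peak in any library, among them ALB and HNF4A, while APOA1 had one in 3 libraries and FOXA1 in 1. Of 6 markers of other cells, 5 had none and the fibroblast gene COL1A1 had one in all 6.

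Of the 5 E2 genes that work with STUB1, peaks at the gene ends were called throughout, in 6 of 6 libraries, for UBE2D3 and UBE2N, in 2 for UBE2D1 and in none for UBE2D2 and UBE2V1. The share of all protein-coding genes with such a peak in every library was 15.8%, and 41.8% lacked one in every library. With the window placed on the start sites that RefSeq lists, UBE2D2 had a peak in 5 libraries and UBE2V1 in 2. The bases just before these start sites are shown first, since the partners' peaks at start sites are described next. They are 250 bases each from RefSeq (GRCh38.p14), written 5′ to 3′ on the gene's strand and ending at the base before the start site. Capitals mark exact matches to short promoter motifs that were searched on both strands.
UBE2D1, chr10:58334756-58335005, plus strand: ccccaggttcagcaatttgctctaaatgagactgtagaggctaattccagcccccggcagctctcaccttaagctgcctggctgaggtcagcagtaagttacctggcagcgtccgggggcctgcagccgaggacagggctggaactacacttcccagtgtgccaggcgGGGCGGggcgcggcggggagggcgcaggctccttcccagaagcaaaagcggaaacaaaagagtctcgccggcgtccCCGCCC
UBE2D2, chr5:139561089-139561338, plus strand: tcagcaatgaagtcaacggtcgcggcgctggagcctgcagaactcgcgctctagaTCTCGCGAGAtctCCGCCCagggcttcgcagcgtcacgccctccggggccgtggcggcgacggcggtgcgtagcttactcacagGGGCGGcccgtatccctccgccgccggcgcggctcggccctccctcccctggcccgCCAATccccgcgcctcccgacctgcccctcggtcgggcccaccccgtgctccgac
UBE2D3, chr4:102828181-102828430, minus strand: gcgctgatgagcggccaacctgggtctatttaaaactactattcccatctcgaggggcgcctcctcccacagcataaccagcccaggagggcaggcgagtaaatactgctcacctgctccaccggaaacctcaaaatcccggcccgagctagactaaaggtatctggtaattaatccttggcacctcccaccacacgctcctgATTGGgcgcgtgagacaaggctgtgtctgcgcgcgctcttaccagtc
UBE2N, chr12:93441948-93442197, minus strand: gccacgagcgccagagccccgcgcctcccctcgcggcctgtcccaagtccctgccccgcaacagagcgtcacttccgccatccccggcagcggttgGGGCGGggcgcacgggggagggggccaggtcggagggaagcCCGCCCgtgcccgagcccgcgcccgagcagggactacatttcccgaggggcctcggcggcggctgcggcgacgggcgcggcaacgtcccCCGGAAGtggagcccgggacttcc
UBE2V1, chr20:50113151-50113400, minus strand: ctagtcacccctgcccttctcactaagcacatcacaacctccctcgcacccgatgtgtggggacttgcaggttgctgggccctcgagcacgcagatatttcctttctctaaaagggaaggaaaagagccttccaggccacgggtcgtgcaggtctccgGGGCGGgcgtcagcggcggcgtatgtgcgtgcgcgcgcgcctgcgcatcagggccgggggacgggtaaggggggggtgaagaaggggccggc
The motif bound by SP and KLF factors was searched as GGGCGG. The one for NFY was searched as CCAAT, and the one for ETS factors as CCGGAAG. The fourth, here called the BANP motif, is the run of capitals that begins UBE2D2's marked bases. None of the matches shown overlapped another. UBE2D1, UBE2D2 and UBE2N held a pair of SP/KLF matches each. UBE2D2 carried the BANP letters with their first base 195 bases before its start, and NFY letters 55 bases before it. In UBE2N the ETS letters began 24 bases before the start. For UBE2D3 the stretch shown belongs to the second of 6 listed start sites, 40715 bp inside the gene, and it overlaps the annotated antisense RNA UBE2D3-AS1. The UBE2V1 stretch lies 2807 bp inside the gene, in a span that UBE2V1 shares with the readthrough gene PEDS1-UBE2V1. No exon annotation was used here, so exonic or intronic position was not determined for any peak.

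UBE2D3 lies at chr4:102794383-102868895 and its outermost start, 102868895, had peaks with folds of 8.33 and 7.74 for WT, 6.59 and 7.50 for V2084D and 6.76 and 10.1 for V2084D shSTUB1. They rested on 15, 12, 11, 20, 14 and 22 reads at the summit in the same order. Within their lists they ranked at percentiles 94.4, 89.7, 81.5, 87.5, 78.8 and 99.1, above those of UBE2N in every list but that of V2084D shSTUB1 replicate 1. This start lies 97 bp from that of CISD2, a gene for a membrane protein of mitochondria and the endoplasmic reticulum, and every one of these peaks also lay within 1000 bp of a CISD2 end. They cannot be assigned to 1 of the 2 genes.

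The inner start of UBE2D3, at 102828180, had a peak of its own in 5 libraries. The folds there were 6.67 in WT replicate 1, 6.52 and 6.30 for V2084D and 4.77 and 7.67 for V2084D shSTUB1, on 19, 17, 33, 20 and 26 reads, and no peak was called in WT replicate 2, the shallowest library. In V2084D replicates 1 and 2 the summit at the inner cluster ranked above the one at the outer start, at percentiles 92.0 and 94.2, and in the other 4 libraries the outer start ranked higher. The gene-end window of the rule does not see this inner start.

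UBE2N, at chr12:93405684-93441947, had folds of 6.32 and 7.23 for WT, 5.43 and 6.51 for V2084D and 6.96 and 7.55 for V2084D shSTUB1. The reads were 10, 11, 9, 18, 15 and 15, and the percentiles 68.8, 84.6, 50.4, 78.7, 82.3 and 89.7. All 6 summits lay upstream of the start, between 140 and 218 bp away. UBE2D3 and UBE2N kept a gene-end peak in all 6 libraries when each list was reduced to its 7234 summits of highest −log10 q, the number in the shortest list on the chromosomes used.

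UBE2D1, at chr10:58335006-58370748, had a gene-end peak only in V2084D replicate 2, with a fold of 5.83 on 11 reads, and V2084D shSTUB1 replicate 1, with a fold of 5.62 on 9 reads. These were the libraries with the longest lists, and neither peak was left in lists of equal length. UBE2D2 (chr5:139526240-139628434) had none at its gene ends, but its only listed start site, 139561339, lies 35099 bp inside the gene. Peaks there had folds of 5.29 in WT replicate 2, 4.82 and 8.40 for V2084D and 5.26 and 6.74 for V2084D shSTUB1, on 8, 7, 19, 9 and 11 reads. No peak was called there in WT replicate 1, although its depth (1.01) was close to that of WT replicate 2 (1).

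UBE2V1, at chr20:50081124-50115957, had no peak at its outer start or its other end. At the inner start, 50113150, peaks were called in V2084D replicate 2, with a fold of 7.46 on 16 reads, and V2084D shSTUB1 replicate 1, with a fold of 4.89 on 8 reads. These are the same 2 libraries as for UBE2D1. The partner that shares its dimer, UBE2N, thus had peaks in 6 libraries where UBE2V1 had them in 2. The other known dimer partner, UBE2V2 (chr8:47997437-48064708), had no gene-end peak in any library. It has no listed start site to place a window on, and an inner region of it had peaks in 4 libraries, given under other observations.

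**Figure D1:**
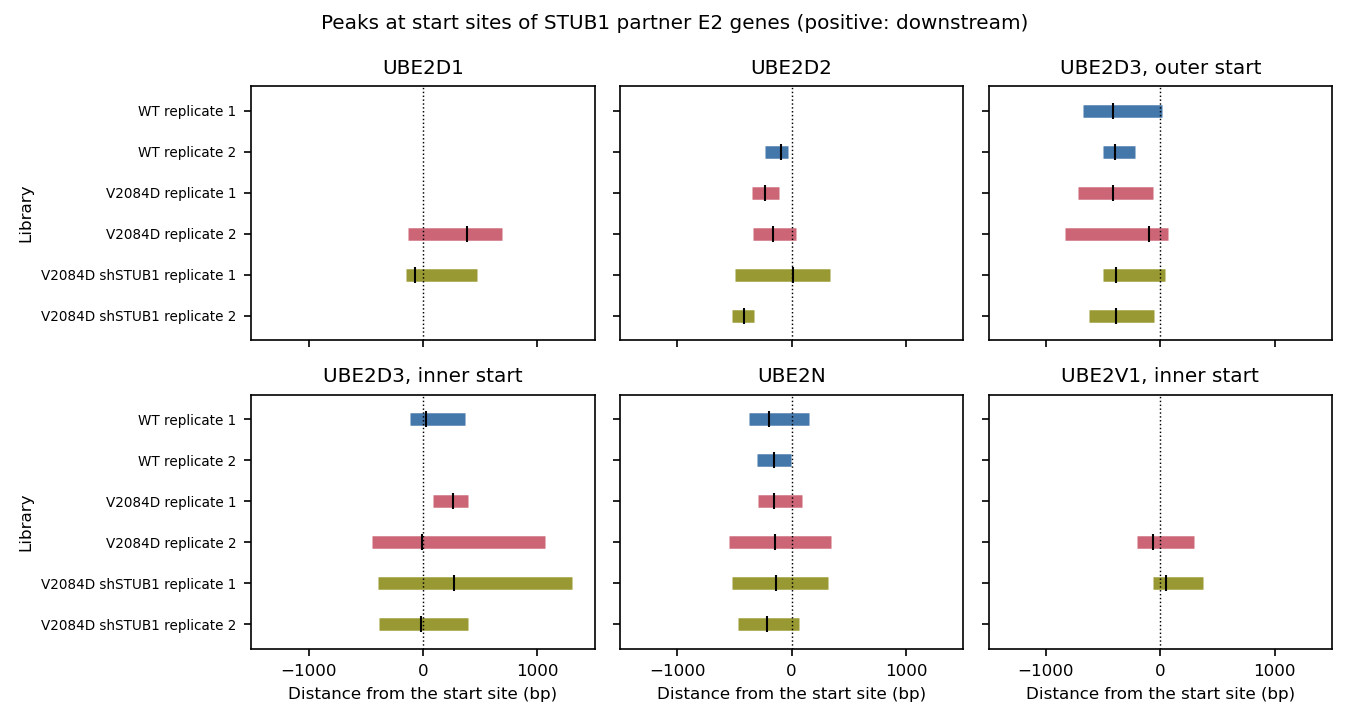
Peaks around the start sites of the STUB1 partner E2 genes, drawn as bars from the first to the last base with a tick at the strongest summit (horizontal axis: distance from the start site in bp, positive in the direction of transcription; vertical axis: library, coloured by group). UBE2D3 (outer start) and UBE2N have bars in all 6 libraries, UBE2D2 and the inner UBE2D3 start in 5, and UBE2D1 and UBE2V1 in the same 2.

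The other E2 genes differed widely within most roles. Of the 7 genes of the UBE2D and UBE2E class, UBE2D3, UBE2D4 and UBE2E2 had peaks in all 6 libraries. UBE2D4 had folds of 7.64 and 4.0 for WT, 7.23 and 8.96 for V2084D and 6.88 and 5.98 for V2084D shSTUB1. The value in WT replicate 2 came from a peak at percentile 6.54 on 5 reads, and the peak in WT replicate 1 was at 86.0 in its own list. The WT replicate 2 peak began at 43926599 and did not overlap that of WT replicate 1, which ended at 43926567. UBE2E2 had folds of 6.10 and 6.55, 4.38 and 8.59, and 3.92 and 5.06 in the same group order, and its V2084D pair lay at percentiles 13.7 and 87.5. UBE2E3 had a single peak, with a fold of 3.98 on 6 reads in V2084D replicate 2. UBE2E1 had none at its ends and 1 at its inner start, 4499 bp inside the gene, with a fold of 6.38 on 11 reads in V2084D shSTUB1 replicate 1.

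Both E2s of the anaphase-promoting complex, the E3 that drives exit from mitosis, had peaks in all 6 libraries. The share of all protein-coding genes was 15.8%, and 1 of the UBE2C peaks was near the end of its list. UBE2S, which extends Lys11-linked chains on its substrates, had the highest mean percentile of all the E2 genes, 95.0. Its folds were 7.98 and 8.43 for WT, 8.43 and 9.77 for V2084D and 9.81 and 8.42 for V2084D shSTUB1, on 14, 13, 13, 25, 20 and 15 reads. Every library placed it between percentiles 92.1 and 97.4. The stretch before its start is shown because it was this highest-ranked gene, a choice made after its values were seen.
UBE2S, chr19:55407789-55408038, minus strand: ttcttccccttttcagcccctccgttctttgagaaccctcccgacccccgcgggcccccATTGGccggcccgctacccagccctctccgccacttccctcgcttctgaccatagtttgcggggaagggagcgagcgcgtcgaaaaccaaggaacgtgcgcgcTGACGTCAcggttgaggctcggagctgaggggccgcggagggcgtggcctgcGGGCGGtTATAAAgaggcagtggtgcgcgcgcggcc
Capitals mark matches to the NFY motif on the other strand, to the CRE motif (searched as TGACGTCA), to the SP/KLF motif and to the TATA motif (searched as TATAAA), which begin 191, 88, 36 and 29 bases before the start. UBE2S was the only E2 gene with the CRE letters in a RefSeq window, and UBE2E1 was the only other one with TATAAA. UBE2C, which starts the chains that UBE2S extends, had folds of 6.47 and 7.05 for WT, 3.61 and 6.02 for V2084D and 7.37 and 5.19 for V2084D shSTUB1. The V2084D replicate 1 peak was at percentile 0.266, close to the end of its list, on 5 reads. It began at 45812871 and overlapped the strongest UBE2C peak of no other library, the nearest of which ended at 45812688. In at least 1 library the UBE2C peak also lay within 1000 bp of an end of DNTTIP1.

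Of the 3 DNA repair E2s, UBE2T, the E2 of the Fanconi anaemia pathway, had folds of 7.07 and 7.07 for WT, 7.69 and 7.14 for V2084D and 6.42 and 7.0 for V2084D shSTUB1, with a mean percentile of 83.1. UBE2A and UBE2B encode the close relatives of yeast Rad6 that act with RAD18 on stalled replication. UBE2A had peaks in 5 libraries, with folds from 4.11 to 6.40 and none in WT replicate 2. UBE2B had them in 3, described with the group patterns.

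Among the 6 genes for Lys48-linked chains and degradation from the endoplasmic reticulum, UBE2G1 alone had peaks in all 6 libraries. Its folds were 4.87 and 5.36 for WT, 5.24 and 6.01 for V2084D and 5.83 and 4.46 for V2084D shSTUB1, at a mean percentile of 47.1, so it was present throughout with a mean rank near the middle of the lists. In V2084D shSTUB1 replicate 1 this strongest peak lay 970 bp inside the gene, and another with a fold of 5.42 covered the gene end. UBE2J1, a membrane-bound E2 of the endoplasmic reticulum, and UBE2K, which builds Lys48-linked chains, each lacked a peak only in WT replicate 2. Their folds ran from 3.74 to 5.94 and from 4.17 to 6.67. UBE2G2, which acts with ligases of the endoplasmic reticulum, had 1 peak (fold 6.87 on 17 reads, V2084D replicate 2) and UBE2J2, also membrane-bound, had 1 (fold 4.73 on 6 reads, V2084D shSTUB1 replicate 1). UBE2R2, a partner of cullin-RING ligases, had none at its gene ends.

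None of the 3 E2 genes for ubiquitin-like modifiers had a peak in every library, and none lacked one throughout. UBE2M and UBE2F, which carry NEDD8, each had peaks in 4 libraries, with folds from 4.13 to 7.23 and from 5.36 to 7.45. UBE2M was at percentile 10.1 in the list of WT replicate 2, 64.2 in that of V2084D replicate 2 and 90.2 and 95.4 in those of V2084D shSTUB1, and had no peak in WT replicate 1 or V2084D replicate 1. The WT replicate 2 peak of UBE2M overlapped none of the others. Its summit lay 978 bp upstream of the start, and theirs 312 to 470 bp upstream. UBE2F had peaks in both WT libraries and in 1 of each other group. UBE2L6, for ISG15, is described with the group patterns.

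The 11 other genes were mixed. UBE2W, which puts ubiquitin on the amino terminus of proteins, was the only one of them with peaks in all 6 libraries, at folds of 6.02 and 4.49 for WT, 6.38 and 7.99 for V2084D and 5.05 and 5.85 for V2084D shSTUB1. UBE2Z, which takes ubiquitin from the E1 enzyme UBA6, UBE2L3, which serves HECT and RBR ligases, and UBE2Q2 had peaks in 5 libraries. Those of UBE2L3 began 641 to 768 bp from its gene end, so none counted with a 500 bp window. When the summit itself had to lie within 1000 bp, UBE2L3 kept a peak in 2 libraries. UBE2Z ranged from a fold of 4.93 to one of 9.77, the latter at percentile 97.3 in V2084D shSTUB1 replicate 2, and had no peak in WT replicate 1. UBE2Q1 had peaks in 4 libraries, UBE2L5 and UBE2O, a large enzyme that acts as E2 and E3 in one, in 2, and UBE2H in 1. The UBE2L5 peaks lay at opposite ends of the gene and the UBE2O peaks did not overlap each other. UBE2QL1, UBE2U and UBE2V1P16, which the table lists as protein-coding despite a pseudogene symbol, had none. With UBE2D2, UBE2E1, UBE2R2, UBE2V1 and UBE2V2 they make up the 8 genes with no gene-end peak.

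**Figure D2:**
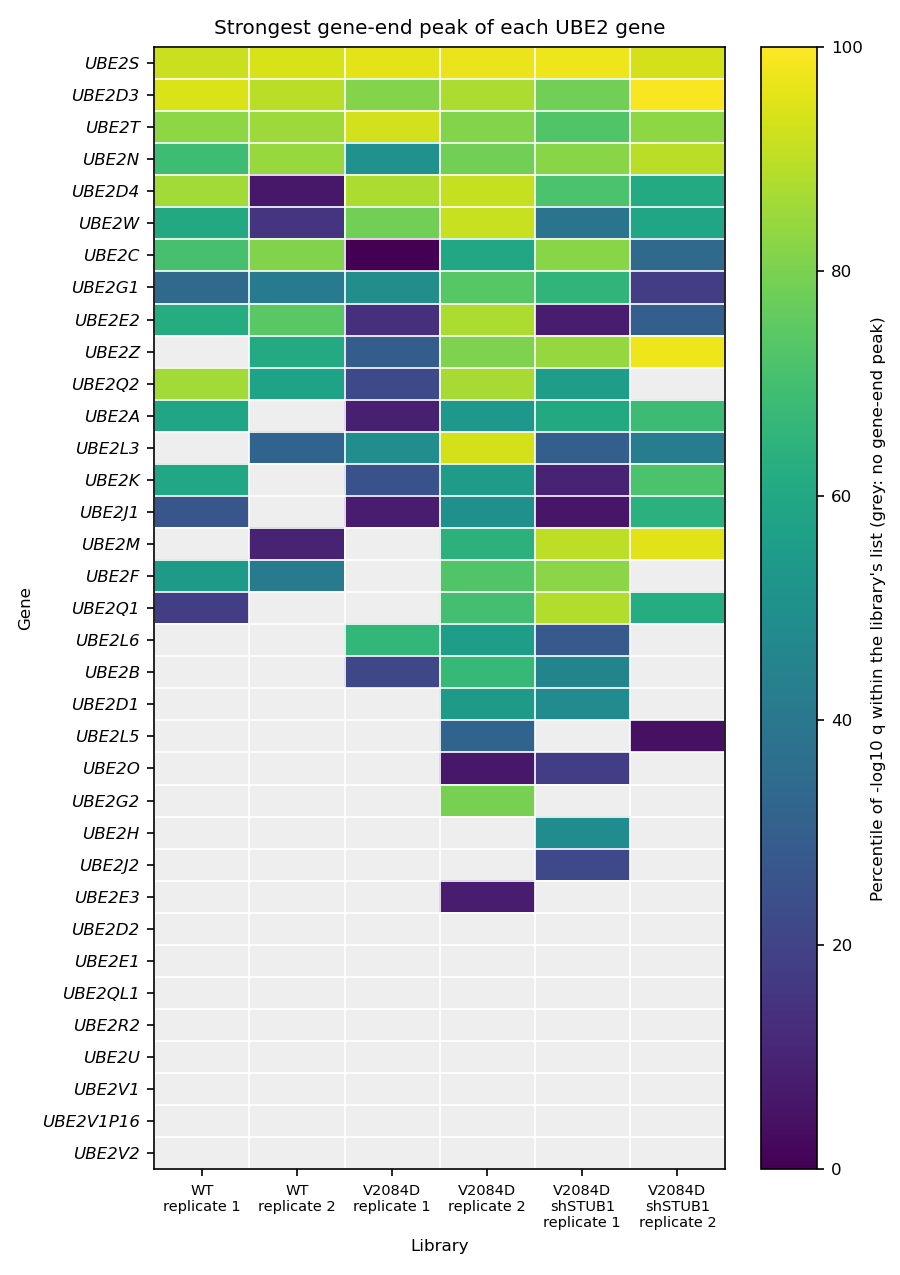
Strongest gene-end peak of each of the 35 UBE2 genes described (rows) in each library (columns), coloured by the percentile of its −log10 q within that library's list, with grey where no peak was called. Rows are sorted by the number of libraries and then by mean percentile, from UBE2S at 95.0 to the 8 genes with no peak.

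Counted per library, 15 and 14 of the 35 genes had a gene-end peak for WT, 17 and 25 for V2084D and 24 and 17 for V2084D shSTUB1. As shares these are 42.9% and 40%, 48.6% and 71.4%, and 68.6% and 48.6%, beside 32.3% and 24.2%, 31.1% and 54.7%, and 48.1% and 40.6% of all protein-coding genes. The group means were 14.5 ± 0.707, 21 ± 5.66 and 20.5 ± 4.95 genes (SD, n = 2). Both V2084D-carrying groups lay above WT without overlap, yet both WT libraries were also below 3 of the 4 others in the share of all genes, and the 2 longest lists had the highest counts. With every list reduced to 7234 summits the counts were 13 and 14 for WT, 13 and 11 for V2084D and 10 and 12 for V2084D shSTUB1, and the V2084D shSTUB1 group was then the lowest. The background was then 25.2% and 24.2%, 26.5% and 25%, and 24.7% and 24.3%. No test was made, since an exact permutation of 2 libraries against 2 cannot go below p = 0.33.

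**Figure D3:**
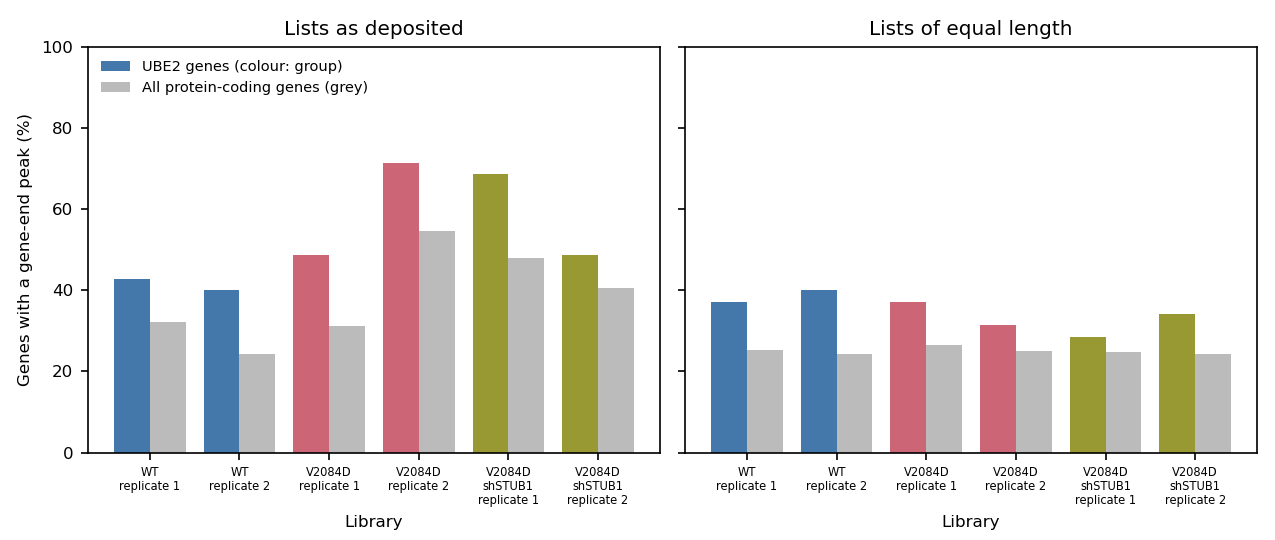
Share of genes with a gene-end peak (vertical axis, percent) in each library (horizontal axis), for the 35 UBE2 genes (bars coloured by group) and all 19974 protein-coding genes (grey bars), with the lists as deposited (left) and cut to 7234 summits each (right). The UBE2 bars differ between groups on the left, up to 71.4%, and on the right the WT bars are no longer the lowest.

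Over the 6 libraries together, 9 of the 35 genes (25.7%) had such a peak in every one and 8 (22.9%) in none. Peaks in 1, 2, 3, 4 and 5 libraries were found at 4, 3, 2, 3 and 6 genes, beside 7.29%, 7.30%, 7.87%, 8.84% and 11.0% of all protein-coding genes. At lists of equal length 5 genes were left with peaks in all 6, UBE2D3, UBE2D4, UBE2N, UBE2S and UBE2T, and 14 had none, beside 8.41% and 56.7% of all protein-coding genes at that length. The list of WT replicate 2 was the shortest and lost nothing, so the UBE2D4 peak there stayed at a −log10 q of 1.75. In each of the 6 lists the share of UBE2 genes with a peak was above that of all genes, which is given as a description with no test.

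**Figure D4:**
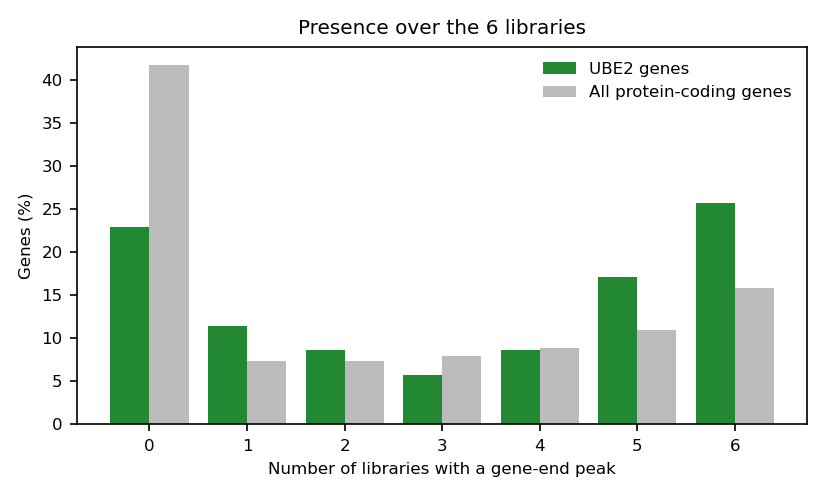
Share of genes (vertical axis, percent) by the number of libraries with a gene-end peak (horizontal axis, 0 to 6), for the 35 UBE2 genes (green) and all protein-coding genes (grey). The bars for no library are 22.9% and 41.8%, and those for 6 libraries 25.7% and 15.8%.

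The ranks of the peaks lay on both sides of those of all genes. Among genes with a gene-end peak, the median percentile of the UBE2 genes was 62.1 and 59.5 for WT, 49.2 and 72.8 for V2084D and 58.5 and 63.7 for V2084D shSTUB1. For all protein-coding genes with a peak it was 59.6 and 57.6, 57.2 and 72.5, and 66.9 and 62.1. The UBE2 value was the higher one in 4 libraries and the lower one in V2084D replicate 1 and V2084D shSTUB1 replicate 1. Their strongest peaks rested on 4 to 25 reads.

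Group patterns were few. UBE2B and UBE2L6 were the genes whose ends had peaks in the V2084D pair and not in the WT pair, 2 genes or 5.71%, beside 5.07% of all protein-coding genes. Peaks in both V2084D shSTUB1 libraries and not in the WT pair were found at 0 genes, beside 7.07% of all genes, and so were peaks in all 4 V2084D-carrying libraries without WT, beside 3.06%. No UBE2 gene had the reverse patterns, WT without V2084D (0.0501% of genes) or WT without V2084D shSTUB1 (0.135%). None separated V2084D from V2084D shSTUB1 in either direction (0.656% and 0.365%). These comparisons share libraries, so their counts are not independent. With 1 library left out, the other library of its group stood alone, so these counts and shares could only stay or rise. The count for V2084D against WT was 5 without WT replicate 1, 4 without WT replicate 2 and 7 without V2084D replicate 1, beside 12.0%, 7.25% and 18.9% of all genes. The count for V2084D shSTUB1 against WT was 4 and 3 without those WT libraries in turn, and 1 and 6 without V2084D shSTUB1 replicates 1 and 2, beside 15.8%, 9.98%, 9.25% and 13.8%.

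UBE2B, at chr5:134371569-134392108, had folds of 4.67 and 6.20 for V2084D and 5.34 in V2084D shSTUB1 replicate 1, on 6, 14 and 10 reads, and in at least 1 library its peak was shared with the neighbour CDKL3. UBE2L6, the interferon-inducible E2 for ISG15, at chr11:57551662-57567935, had folds of 6.08 and 6.25 for V2084D and 5.0 in V2084D shSTUB1 replicate 1, on 8, 9 and 7 reads. The stretch before its outermost start is shown because it was the one gene of this pattern with a RefSeq entry, which was known only after its values.
UBE2L6, chr11:57567936-57568185, minus strand: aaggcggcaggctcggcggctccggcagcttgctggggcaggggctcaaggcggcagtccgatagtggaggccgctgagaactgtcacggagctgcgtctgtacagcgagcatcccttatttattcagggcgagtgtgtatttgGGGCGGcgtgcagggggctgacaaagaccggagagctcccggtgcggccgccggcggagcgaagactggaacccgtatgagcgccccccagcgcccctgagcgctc
Its only motif in capitals is a match to GGGCGG (SP/KLF) that begins 106 bases before the start. The peaks of V2084D overlapped this stretch, reached upstream of it and had summits 348 and 345 bp before the start. Neither gene kept the pattern in lists of equal length, where 1.97% of all genes showed it. The list of V2084D replicate 2 then ended at a −log10 q of 8.46, above the values of UBE2B (7.11) and UBE2L6 (5.87) in that library.

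At the listed start sites, which 28 of the 35 genes have in the RefSeq table, the counts of genes with a peak were 12 and 13 for WT, 16 and 23 for V2084D and 23 and 15 for V2084D shSTUB1. These are 42.9% and 46.4%, 57.1% and 82.1%, and 82.1% and 53.6%, beside 35.7% and 26.7%, 34.1% and 58.9%, and 52.0% and 44.1% of the 15813 protein-coding genes with an entry. Peaks in all 6 libraries were found at 7 genes (25%, background 17.6%) and in none at 3 (10.7%, background 37.9%). UBE2R2 entered the V2084D pattern here, at a start 1992 bp inside its gene, 33817160 on chromosome 9. Its folds were 5.23 and 4.0 for V2084D and 5.49 and 5.84 for V2084D shSTUB1, on 8, 9, 9 and 8 reads, with none in WT. The peaks of the V2084D shSTUB1 pair did not overlap each other and lay 70 bp apart. With UBE2L6 that made 2 genes (7.14%, background 5.27%) for V2084D against WT and 1 (3.57%, background 7.35%) for V2084D shSTUB1 against WT. The UBE2R2 peak of V2084D replicate 2, at a −log10 q of 2.69, would not have stayed in a list of equal length.

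The peaks sat at the starts of the genes. Of the 90 pairs of a gene and a library with a gene-end peak at genes whose strand is known, 88 (97.8%) had it at the start alone, 2 at both ends and none at the far end alone, beside 93.4% at the start alone for all genes. The median summit lay at -78.5 bp from the nearest start, which is upstream (-58 bp for all genes), and the peak covered the start itself in 56.9% of cases (67.5%). Of the 27 UBE2 genes with a gene-end peak, 6 (22.2%) shared it with a protein-coding neighbour in at least 1 library. The share was 30.8% among all protein-coding genes with a gene-end peak. The pairs were UBE2D3 with CISD2, UBE2B with CDKL3, UBE2D4 with URGCP, UBE2O with AANAT, UBE2C with DNTTIP1 and UBE2L3 with RIMBP3C. A start site more than 1000 bp from both gene ends was listed for 5 of 28 genes (17.9%), beside 21.6% of all genes with an entry.

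The RefSeq windows of 300 bases, 250 before the start and 50 from it on, were richer in G and C at UBE2 genes than at other genes. Their median GC content was 70.5% over 40 windows, from 39.0% to 82.3%, beside 62.3% over the 22156 windows of all protein-coding genes, and the median number of CpG pairs was 34 beside 21. UBE2 genes with start-site peaks in 5 or 6 libraries had a median GC content of 72.2% (n = 14), those in 3 or 4 of 73.3% (n = 4), those in 1 or 2 of 69.7% (n = 7) and those in none of 59.0% (n = 3). For all genes the same medians were 64.0%, 65.7%, 66.3% and 55.7%. UBE2QL1 had the highest GC content, 82.3%, and no peak. Of the genes next to it, UBE2E2 (80.3%) had peaks in 6 libraries, and UBE2E3 (79.2%) and UBE2J2 (77.3%) in 1 each. The part of base composition in the counts was not tested.

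**Figure D5:**
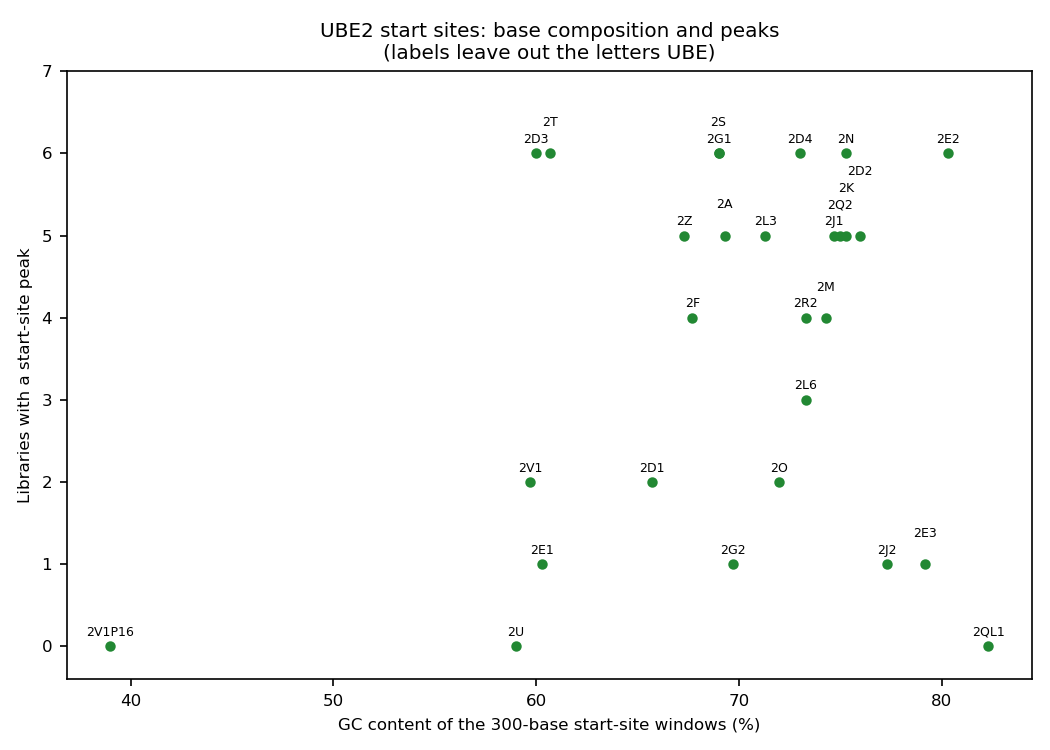
GC content of the 300-base start-site windows (horizontal axis, percent, mean over a gene's listed starts) and number of libraries with a start-site peak (vertical axis) for the 28 UBE2 genes with a RefSeq entry, 1 point per gene. Points at 5 and 6 libraries spread from 60% to 80.3%, and UBE2QL1 sits at 82.3% with no peak.

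Of 8 promoter motifs searched on both strands, most were about as frequent in the 40 UBE2 windows as in the 22156 windows of all protein-coding genes. ETS letters were in 15% beside 12.8%, NFY letters in 30% beside 34.6%, YY1 letters (AAGATGGC) in 5% beside 3.53% and NRF1 letters in 2.5% beside 1.5%. CRE letters were in 2.5% beside 2.26% and TATAAA in 5% beside 9.46%. SP/KLF letters, made only of G and C, were in 75% beside 56.3%. The BANP letters were in 2 of 40 windows (5%) beside 0.569%, and both belong to STUB1 partners, UBE2D2 and UBE2D3. This motif was added after its letters were seen in the UBE2D2 stretch, so the count is a description only. The UBE2D3 copy lies 132 bases before another listed start, 102827948, and both sites are printed with the motif in capitals.
UBE2D2, chr5:139561134-139561163, plus strand: gcgctctagaTCTCGCGAGAtctccgccca
UBE2D3, chr4:102828061-102828090, minus strand: ccttactgcgTCTCGCGAGAacttatgcat
A peak lay over the UBE2D2 site in 4 libraries and over the UBE2D3 site in 5, with WT replicate 1 and V2084D shSTUB1 replicate 2 lacking it at the first and WT replicate 2 at the second. A letter match is not evidence of binding.

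The rest of the ubiquitin relay was read in the same way from lists that had been chosen with earlier results of these data known. Of 8 E1 enzymes, UBA6 and ATG7 had gene-end peaks throughout, in 6 libraries, and UBA1, the main ubiquitin E1, had none, like UBA3 and UBA7. Of all protein-coding genes, 15.8% had one in all 6 libraries and 41.8% in none. With the window on listed start sites, 3 E1 enzymes had a peak in all libraries, beside 17.6% of all genes with an entry. Start-site calls are not given by name for these enzymes. A missing gene-end peak therefore does not say that their start sites lacked one. ATG7, the E1-like enzyme of autophagy, had folds of 6.76 and 7.33 for WT, 8.11 and 8.06 for V2084D and 9.20 and 7.50 for V2084D shSTUB1. SAE1, a subunit of the SUMO E1, had peaks in the V2084D pair but not the WT pair (folds 3.85 and 6.13), and also in V2084D shSTUB1 replicate 2 (6.71). NAE1, of the NEDD8 E1, had them in both V2084D shSTUB1 libraries (4.49 and 5.13) and V2084D replicate 2 (6.38) and in neither WT library. UBA6, ATG7 and the genes past the limit of 4 names for a list were named after their values were seen.

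Of 2 genes read that encode ubiquitin, UBB had peaks in all 4 V2084D-carrying libraries and in neither WT library, with folds of 6.91 and 5.09 for V2084D and 9.57 and 6.25 for V2084D shSTUB1. That pattern was found at 3.06% of all protein-coding genes. RPS27A, which encodes ubiquitin fused to a ribosomal protein, had peaks in 5 libraries. Of 8 further E2 and E2-like genes, 5 had peaks in all 6 libraries, namely BIRC6, TSG101, UFC1, ATG3 and ATG10, and none lacked them throughout. The shares of all protein-coding genes were 15.8% for all 6 libraries and 41.8% for none. TSG101, an E2-like protein without catalytic activity, had folds from 5.43 to 10.7. UEVLD had peaks in both V2084D shSTUB1 libraries and neither WT library, with folds of 5.49 and 7.93. In all 18 pathway genes, then, 2 had the pattern of both V2084D libraries without WT (SAE1 and UBB) and 3 that of both V2084D shSTUB1 libraries without WT (NAE1, UBB and UEVLD), where 5.07% and 7.07% of all genes did. UBB is in both counts. Whether these genes kept their patterns in lists of equal length is not given here, and UBE2B and UBE2L6 did not keep theirs.

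At the edge of the 1000 bp window, the farthest peak that still counted was that of UBE2G1 in V2084D shSTUB1 replicate 1, 970 bp from the gene end with a fold of 5.83. The nearest that did not count were at UBE2L5 in V2084D replicate 1, 1110 bp away with a fold of 3.85, and at UBE2G1 in V2084D replicate 2, 1196 bp away with a fold of 6.05. Taking each gene's closest peak, the farthest by which a gene was called were UBE2M in WT replicate 2, at 784 bp with a fold of 4.13, and UBE2L3 in V2084D replicate 1, at 768 bp with a fold of 5.38. The closest peak of UBE2R2 in V2084D replicate 2, at 1520 bp with a fold of 4.0, fell outside.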

How the data were processed

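ATAC-seq peak lists of 6 libraries were used, with groups taken from sample titles. Build hg38 is named, per the submitters' processing notes, with MACS2 as the peak caller's name and Trimmomatic, Bowtie2, SAMtools, Picard, deepTools and bedtools as further tools. Versions, settings and any shift to the transposase cut are not stated there. In the deposited files each summit has the authors' fold or ratio over background, its −log10 p and −log10 q, and a score of 10 times that −log10 q, and peaks were called per library. The lowest deposited −log10 q was 1.30 to 1.31. Summits on chromosomes 1 to 22 and X were kept, and 2.07% to 2.60% lay elsewhere.

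Genes, start sites and sequences came from RefSeq tables (GRCh38.p14), which list 28 of the 35 members described with a start site. UBE2B, UBE2C, UBE2H, UBE2L5, UBE2Q1, UBE2V2 and UBE2W have no entry. UBE2NL, planned in a role list, is not protein-coding in the table and was left out. A few planned genes, 1 of them a member, are not reported here and enter no count of members or lists. Reads at a summit were recovered from fold and −log10 p, assuming a Poisson p and a pseudocount of 1, and were whole within 0.001 in −log10 p at 94891 of 94895 summits. Intervals were not computed, and read totals were not used here. The strongest gene-end peak by −log10 q stood for a gene, and patterns needed both libraries of a group and neither of the other. The scripts were tested on simulated lists (Python 3.11.15, numpy 2.4.6, scipy 1.17.1).

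Named with values were the STUB1 partners, genes with a group pattern, genes with no peak, the 5 highest and 5 lowest by mean percentile among genes with 6 peaks, and, per pathway list, up to 4 genes with a pattern or no peak. Members and lists were chosen with earlier results of these data known. Start-site detail, neighbours, summit positions, base composition and the BANP motif were looked at after values were seen. Alternatives were a stricter −log10 q, equal list length, other windows, the summit alone, start sites alone and each library left out.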

Additional observations from a re-analysis of the deposited data

How the results depend on the processing

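No paired analysis was possible because no result comes from a test. Of 186 alternative counts, 140 stayed within 1.5 times the count reported and 46 did not. At a −log10 q of at least 5, members with a gene-end peak numbered 8 and 6 for WT, 5 in V2084D replicate 1 and 13 in V2084D shSTUB1 replicate 1 (15.4%, 9.92%, 11.0% and 30.8% of all genes), with 3 in all libraries (3.18%), 13 in none (54.4%) and UBE2D1 in 1 library. The patterns were then WT without V2084D shSTUB1 at 1 gene, V2084D without WT at 1 and V2084D shSTUB1 without WT at 4 (0.170%, 3.44% and 6.11% of all genes), and 1 E1 enzyme and 1 of the other E2 and E2-like genes had peaks in all libraries. At equal list length, V2084D replicate 2 had 11 members with a peak and V2084D shSTUB1 replicate 1 had 10 (25% and 24.7%), 5 members had one in all libraries (8.41%) and 14 in none (56.7%), and UBE2D1 had one in 0 libraries. V2084D without WT then held 0 members and WT without V2084D 2, WT without V2084D shSTUB1 3, V2084D shSTUB1 without WT 1, V2084D without V2084D shSTUB1 2 and the reverse 2, beside 1.97%, 1.74%, 1.75%, 1.75%, 1.68% and 1.28% of all genes in that order, with 1 E1 enzyme and 3 other E2 and E2-like genes in all libraries. With a 500 bp window V2084D shSTUB1 without WT held 1 member, UBE2M (6.66% of all genes), and UBE2L3 had no peak in any library. With 2000 bp that pattern held 1 member, UBE2R2 (7.39%), and V2084D without WT held 4 (5.35%). At start sites alone UBE2D2 had a peak in 5 libraries and UBE2V1 in 2, 3 members had none (37.9%), and V2084D shSTUB1 without WT held 1 (7.35%). The lists differed in depth, and this limits every count of missing peaks.

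With each library left out in turn, the lowest and highest counts were 2 and 7 for V2084D without WT, 1 and 6 for V2084D shSTUB1 without WT, 0 and 1 for WT without V2084D, and 0 and 2 for WT without V2084D shSTUB1. They were 0 and 3 for V2084D without V2084D shSTUB1, 0 and 2 for the reverse, and 0 and 1 for ubiquitin genes in all libraries. The shares of all genes with these 6 patterns ran, in the same order, from 5.52% to 18.9%, 9.25% to 15.8%, 0.0601% to 3.49%, 0.305% to 0.981%, 0.941% to 6.24% and 0.446% to 10.8%. Members in all libraries ran from 9 to 12 and members in none from 8 to 10. Leaving out a library loosens each of these definitions, so no such count could fall below the one reported.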

Other observations

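Away from their gene ends, UBE2 genes held few peaks that recurred. Peaks inside the gene and outside the 1000 bp windows merged into 18 regions in 11 genes, of which 14 were seen in 1 library, 1 in 2 and 3 in 3 or more. These were looked at after values were seen. UBE2V2, the alternative dimer partner of UBE2N with no peak at its gene ends, had an inner region in WT replicate 1 (fold 4.48), V2084D replicate 2 (8.57) and both V2084D shSTUB1 libraries (6.88 and 6.0). UBE2H, an E2 that works with the CTLH ligase complex, had one in both WT libraries (5.15 and 3.88), V2084D replicate 2 (4.29) and V2084D shSTUB1 replicate 1 (4.76). UBE2U had one in WT replicate 1 (3.33) and both V2084D shSTUB1 libraries (6.33 and 3.95). The UBE2U region was thus in both V2084D shSTUB1 libraries and in neither V2084D library. Its peak in V2084D shSTUB1 replicate 2 had a −log10 q of 1.89 on 5 reads, where the lowest in that list was 1.31. The region seen in 2 libraries, in UBE2L3, went the other way. It was in both V2084D libraries (folds 5.56 and 3.64, −log10 q 3.97 and 1.88) and in no WT or V2084D shSTUB1 library. The second of these values is from V2084D replicate 2, the longest list, where the lowest was 1.30. The regions of UBE2V2 and UBE2H separated no pair of groups. No share over all genes was computed for such regions, so they are not read as differences between groups.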
